A study of Mus musculus with 33 samples.

Results

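The 46 genes described here encode the machinery that copies chromosomal DNA, from the proteins that mark origins to those that package the new strands in chromatin. They were chosen by name, as the rows of the expression table whose gene symbol is on a fixed list, and are 46 of the 21671 genes measured. All 46 were found in the table. They are 3 subunits of the origin recognition complex, 3 licensing proteins, the 6 subunits of the MCM2-7 helicase, 8 genes of helicase activation, 4 of polymerase alpha and primase, 5 of polymerases delta and epsilon, 6 of the sliding clamp and its loader, 3 of the single-strand binding protein RPA, 2 of Okazaki fragment maturation, 4 of fork protection and checkpoint signalling and 2 of the chromatin assembly factor CAF-1.

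The study measured total RNA of livers and liver tumours from C57BL/6 mice, to ask how the transcription factor MYC and β-catenin, the effector of WNT signalling, act together in liver cancer. In the short-term experiment every animal, controls included, received AAV8-TBG-CRE, a viral vector carrying Cre recombinase under the TBG promoter, which is active in hepatocytes, at 6 to 8 weeks of age, and livers were taken on day 4. These were 5 wild-type (WT) livers, 5 with the b-cat Ex3 allele (Ex3, whose exon is removed by Cre to leave a stabilised β-catenin), 5 with the R26-lslMYC allele (MYC) and 5 with both (MYC+Ex3). The long-term experiment held 3 liver noduli from Alb-CreERT2/R26-lslMYC mice and 3 from mice that also carried the Ex3 allele, called MYC and MYC+Ex3 tumours below. R26-lslMYC is a MYC transgene at the Rosa26 locus behind a stop that Cre removes, and Alb-CreERT2 is a tamoxifen-dependent Cre driven in hepatocytes by the albumin promoter. Their comparators were 7 livers labelled WT taken 4 days after 4-hydroxytamoxifen (4-OHT). The ages of the tumour mice are not in the labels, so that genotype, tumour growth and any difference in age cannot be told apart in those comparisons. The labels also do not state that each library came from a separate animal, and the p-values measure the spread between these libraries.

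In a dividing cell, the origin recognition complex, Cdc6 and Cdt1 load the ring-shaped MCM2-7 helicase on DNA before S phase, and geminin (Gmnn) blocks loading afterwards. The kinase Cdc7 with its activator Dbf4, together with Mcm10, Cdc45 and the GINS complex, turns the loaded ring into a moving fork. There primase and polymerases alpha, delta and epsilon work, of which delta and epsilon synthesise DNA on the clamp Pcna. Many of these genes are transcribed under the control of E2F factors, and MYC is known to bind the promoters of many of them at E-boxes. Adult hepatocytes are mostly quiescent and re-enter the cell cycle after injury or oncogene activation.

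The promoters of 37 of the 46 genes were found in the RefSeq table of build GRCm38.p6, with 44 start sites in all. No promoter was matched for Gins1, Gins2, Gins4, Mcm4, Gmnn, Pole, Prim2, Rfc2 and Tipin. The 250 bases before each start site were searched on both strands for the E2F motif TTCCCGC, for its other forms TTGGCGC as well as TTCGCGC and also TTGCCGC, for the E-box CACGTG and for the CCAAT box, with overlapping matches counted separately. An E2F motif lay in 17 of the 44 promoters (38.6%), against 7.89% of the 32851 promoters in the table. The E-box was present in 5 of 44 (11.4%, against 6.02% of all promoters) and the CCAAT box in 23 of 44 (52.3%, against 33.8%). The windows printed here, 5′ to 3′ on the strand of the gene, belong to 4 matched genes and to Mcm10, whose transcript did not pass the test in MYC livers. The 4 had the largest rise there on the log2(RPKM + 1) scale, which understates low genes. In the authors' deposited table the low gene Cdc6, also matched, had a log2 change of 3.08, against 2.28 for Prim1. Capitals mark E2F motifs and E-boxes, and neighbouring matches run together.
Mcm5 (chr8:75109259-75109508, forward strand): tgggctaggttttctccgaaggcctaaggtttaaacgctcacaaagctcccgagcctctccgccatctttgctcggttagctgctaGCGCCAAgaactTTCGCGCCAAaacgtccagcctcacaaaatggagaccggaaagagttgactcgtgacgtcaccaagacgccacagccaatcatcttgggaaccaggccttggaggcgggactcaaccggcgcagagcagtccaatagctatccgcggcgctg
Mcm6 (chr1:128359706-128359955, reverse strand): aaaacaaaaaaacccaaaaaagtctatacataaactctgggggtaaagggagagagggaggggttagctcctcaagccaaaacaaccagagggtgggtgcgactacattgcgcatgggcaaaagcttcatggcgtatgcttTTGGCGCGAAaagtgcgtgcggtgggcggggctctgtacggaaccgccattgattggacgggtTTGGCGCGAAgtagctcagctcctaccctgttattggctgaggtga
Mcm2 (chr6:88898781-88899030, reverse strand): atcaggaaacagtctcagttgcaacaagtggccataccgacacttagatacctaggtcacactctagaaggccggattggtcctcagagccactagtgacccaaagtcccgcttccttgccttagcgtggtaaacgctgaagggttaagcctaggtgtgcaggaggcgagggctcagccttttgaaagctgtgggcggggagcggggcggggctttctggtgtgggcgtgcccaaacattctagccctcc
Prim1 (chr10:128014965-128015214, forward strand): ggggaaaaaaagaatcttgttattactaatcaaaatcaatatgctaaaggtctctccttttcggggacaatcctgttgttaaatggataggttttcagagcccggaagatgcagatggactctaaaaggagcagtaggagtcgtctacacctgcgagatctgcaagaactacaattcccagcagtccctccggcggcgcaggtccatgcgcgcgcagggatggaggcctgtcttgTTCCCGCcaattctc
Mcm10 (chr2:5012792-5013041, reverse strand): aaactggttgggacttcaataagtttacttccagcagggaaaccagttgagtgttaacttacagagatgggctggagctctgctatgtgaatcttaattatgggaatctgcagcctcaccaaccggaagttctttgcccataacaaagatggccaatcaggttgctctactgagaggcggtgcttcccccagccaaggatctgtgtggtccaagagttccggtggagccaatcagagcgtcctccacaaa
The Mcm5 window held 3 E2F matches, of which 2 overlapped, and the Mcm6 window 4, in 2 runs of 2 overlapping matches each, whereas the Prim1 window held 1. The Mcm2 window held no E2F match and no E-box, although the Mcm2 transcript was among those that rose most, and the Mcm10 window held neither. Among the 37 matched genes, the median log2 change in MYC livers was 1.66 for the 16 genes with an E2F match and 1.27 for the 21 without, with ranges of 0.81 to 3.23 and 0.27 to 2.54. The other motifs split the other way: the median was 0.95 for the 5 genes with an E-box and 1.53 for the 32 without, and 1.17 for the 22 genes with a CCAAT box and 1.65 for the 15 without. In MYC tumours the medians with and without an E2F match were 1.21 and 1.12. A match is a run of letters in this window and not evidence of binding.

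Libraries of the short-term experiment held 3.75 to 7.31 M reads in genes (median 4.98 M), and those of the tumours and 4-OHT livers 6.65 to 9.82 M (median 8.25 M). The RPKM of the short-term livers and of the tumour experiment are on different scales, so levels are compared only within an experiment. The highest RPKM of any gene was 272 to 340 in WT livers and 237 to 351 in MYC livers. It was 43.3 to 59.5 in 4-OHT livers and 42.9 to 67.5 in MYC tumours. Whether high values, such as those of Mcm7, Pcna and the hepatocyte markers, are compressed was not tested. Axin2, a target of β-catenin, was at 10.6 to 24.9 RPKM in Ex3 livers and 7.49 to 24.3 in MYC+Ex3 livers, above the 2.73 to 4.30 RPKM of WT livers, and at 7.63 to 11.3 RPKM in MYC+Ex3 tumours against 0.0946 to 0.660 in MYC tumours. The Myc row of the table was at 3.12 to 4.81 RPKM in MYC livers and 0.748 to 4.11 in WT livers, and the files do not say whether reads of the transgene are counted in it. Of the 20 short-term livers, 3 WT, 3 Ex3, 1 MYC and 3 MYC+Ex3 livers carried transcripts of the epidermal keratins Krt5, Krt14 and Krt17 at a sum above 1 RPKM, a split read from the data and not from the labels. Results within each of these sets are given beside the pooled ones. The summed hepatocyte markers were at 1081 to 1283 RPKM in WT livers and 913 to 1276 in MYC livers, and at 184 to 247 in 4-OHT livers, 161 to 253 in MYC tumours and 155 to 195 in MYC+Ex3 tumours.

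The first comparison asked what MYC alone did after 4 days. Transcripts of 44 of the 46 replication genes rose in MYC livers against WT livers, none fell, and Mcm10 and Pold3 did not pass the test. Across all genes tested, 16.9% were called higher and 5.36% lower by the same rule, which was a limma adjusted p under 0.05 with Benjamini-Hochberg adjustment over 13688 genes. The median change of the 46 genes was 1.32 on the log2(RPKM + 1) scale, against 0.07 over all genes tested. The changes ran from 0.27 for Mcm10 to 3.34 for Gins2. In 40 of the 46 genes the lowest MYC liver lay above the highest WT liver, as it did in 10.9% of all genes. Since the samples are whole tissue, a larger share of replicating cells and more RNA per cell cannot be told apart.

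**Figure D1:**
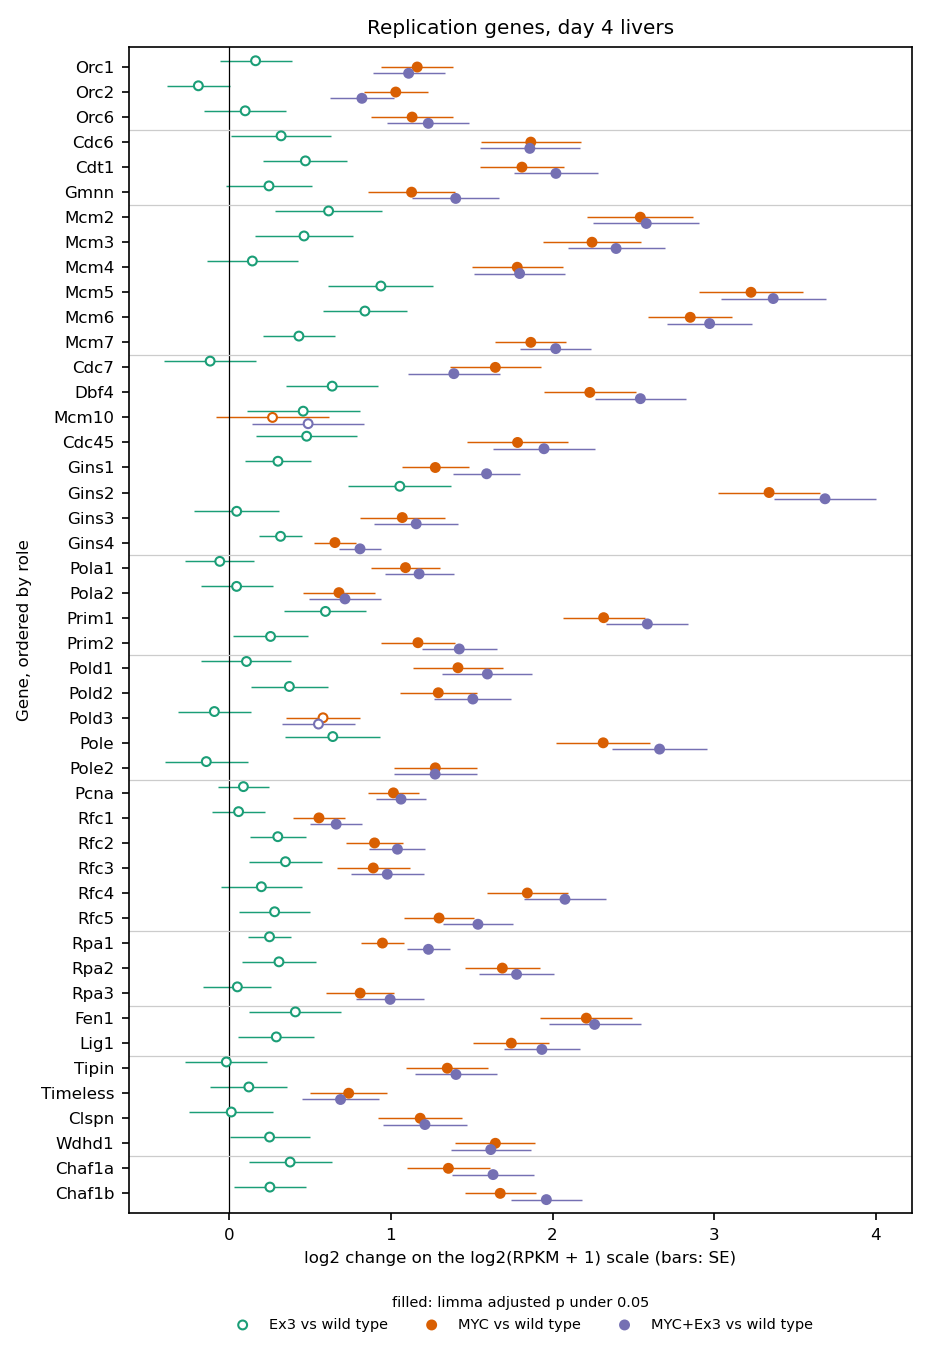
Change of each replication gene in day 4 livers against wild-type livers, as log2 change on the log2(RPKM + 1) scale with SE (n = 5 livers a group), with genes grouped by role between grey lines. Filled points passed the limma test: 44 of 46 genes in MYC and 44 of 46 in MYC+Ex3 livers, and none in Ex3 livers.

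Some members were barely detected in WT livers. Orc1, Cdc6, Cdc7, Cdc45, Pole and Clspn were below 1 RPKM in every WT liver and were tested only because other groups reached that level. They had to differ to be tested, so their calls are no evidence, although the counts above include them. Without these 6, 38 of 40 genes rose and 34 were without overlap. Cdc6 is the ATPase that joins the origin complex to load the helicase. Its RPKM was 0.301, 0.0909, 0.200, 0.167 and 0.277 in WT livers, from 2 to 8 reads a library, and 4.01, 1.07, 2.58, 5.49 and 5.78 in MYC livers. The lowest MYC liver stood well under the other 4. The log2 change of Cdc6 was 1.87 with a pseudocount of 1, and 3.50 with a pseudocount of 0.1.

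All 3 origin recognition genes rose. Orc1, Orc2 and Orc6, which encode subunits of the complex that marks origins, had log2 changes of 1.16, 1.03 and 1.13. The change of Orc1, which is low in WT livers, was 2.21 with a pseudocount of 0.1. Orc2 went from 6.63 ± 0.735 RPKM (SD, n = 5) in WT livers to 15.7 ± 7.62 in MYC livers, and Orc6 from 6.70 ± 1.64 to 17.3 ± 10.3, where 1 MYC liver still lay within the WT range. About 29.8% of the exon bases of Orc2 overlap Nif3l1 on the other strand in the GENCODE annotation. Of the licensing genes, Cdt1 rose from 1.31 ± 0.320 to 7.35 ± 2.44 RPKM, a log2 change of 1.81. Gmnn, the inhibitor of Cdt1, rose from 6.51 ± 0.837 to 16.7 ± 8.34 RPKM, a log2 change of 1.13 ± 0.267 (limma adjusted p = 0.00442). All 3 licensing genes were without overlap between the groups. Within the keratin-free livers alone the Gmnn change was 0.73 and did not pass the test (limma adjusted p = 0.0713).

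The helicase ring showed the highest median change of the 11 roles, at 2.39 for Mcm2 to Mcm7, and all 6 subunits rose without overlap. Mcm5 was at 2.66, 0.577, 2.21, 2.47 and 2.87 RPKM in WT livers and at 31.0, 16.2, 24.0, 40.7 and 30.4 in MYC livers. Every MYC liver was thus several times above every WT liver, and the library numbered 2 was the lowest of each group. The log2 change of Mcm5 was 3.23 ± 0.324 (SE, limma adjusted p = 2.14e-06). Mcm6 rose from 3.29 ± 0.241 to 30.7 ± 7.67 RPKM (log2 change 2.85), Mcm2 from 2.99 ± 0.924 to 23.0 ± 9.01 (2.54) and Mcm3 from 3.59 ± 1.17 to 21.2 ± 7.73 (2.24). The smallest changes of the ring were those of Mcm7, from 18.1 ± 5.70 to 66.7 ± 14.2 RPKM (1.87), and Mcm4, from 2.92 ± 0.712 to 13.1 ± 5.54 (1.78).

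The 6 subunits assemble in equal number, but their transcripts did not stand at equal levels. RPKM is scaled by gene length, so the subunits can be set side by side within a library. The ratios below assume that the high values of Mcm7 are not compressed, which was not tested. In WT livers Mcm7 was 5.95 ± 0.643 times (SD, n = 5) the mean of the other subunits, and in MYC livers 3.0 ± 0.662 times, with ranges of 5.12 to 6.67 and 2.04 to 3.80 that did not overlap. The ratio was 4.91 ± 1.44 in Ex3 livers and 3.10 ± 0.576 in MYC+Ex3 livers. The Mcm7 row also spans the host transcript of the microRNAs Mir25 and Mir93, and 7.25% of its exon bases overlap Ap4m1 on the other strand. In the tumour experiment the 7 4-OHT livers had a ratio of 2.76 ± 0.306. It was 2.24 ± 0.527 in the 3 MYC tumours, and the 3 MYC+Ex3 tumours had 2.03 ± 0.0528.

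**Figure D2:**
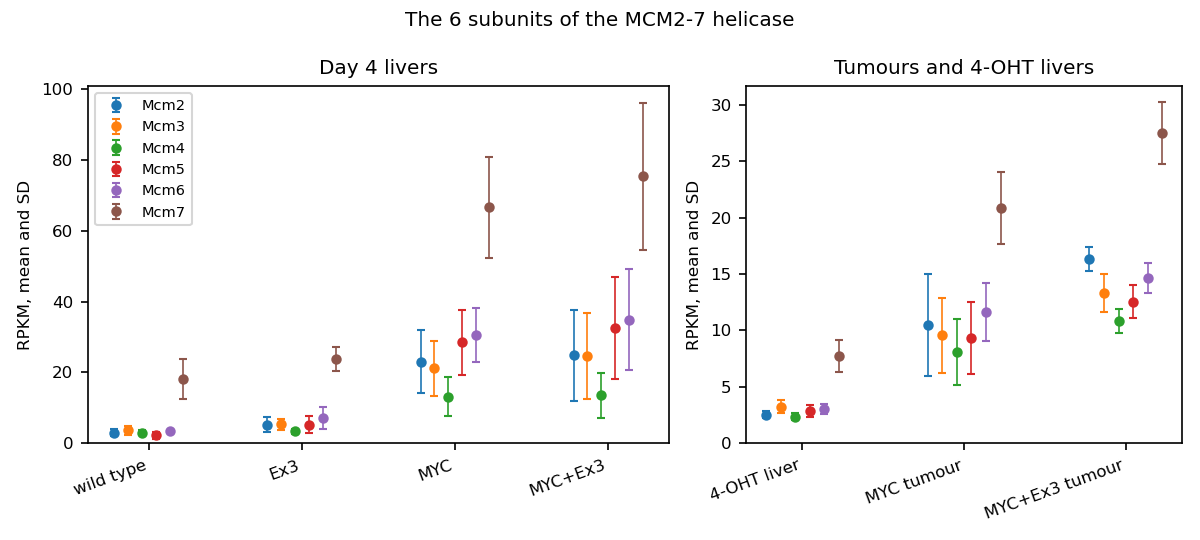
RPKM of the 6 MCM2-7 subunits as mean and SD per group, with day 4 livers on the left (n = 5 a group) and 4-OHT livers (n = 7) and tumours (n = 3 a group) on the right, on separate scales. Mcm7 was the highest subunit in every group, and the other 5 rose more in proportion, so that the subunits lay closer together in MYC livers than in WT livers.

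Genes of helicase activation held both the largest and the smallest change. Gins2, a subunit of the GINS complex, was at 1.07, 0, 1.75, 1.39 and 1.54 RPKM in WT livers, from 0 to 11 reads a library, and at 20.3, 15.2, 20.2, 31.8 and 14.2 in MYC livers. The MYC livers were all far above the WT livers, with a log2 change of 3.34 ± 0.318 (SE, limma adjusted p = 1.31e-06). In GENCODE, 67.3% of the exon bases of Gins2 overlap Gse1 on the other strand, and the source does not give the strand setting of the counting. The other GINS genes rose less: Gins1 by 1.27, Gins3 by 1.07 and Gins4, already at 19.4 ± 3.70 RPKM in WT livers, by 0.65 on the log2 scale. Dbf4, the activator of the Cdc7 kinase, rose from 2.60 ± 1.13 to 16.2 ± 6.16 RPKM (log2 change 2.23), Cdc7 by 1.65 and Cdc45, which rides with the helicase, by 1.78.

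Mcm10, which helps to open the origin, was the exception. Its RPKM was 15.7, 5.70, 8.13, 13.4 and 3.85 in WT livers and 11.1, 18, 7.07, 10.6 and 7.40 in MYC livers. The groups overlapped over most of their range, and each library was backed by at least 95 reads. The log2 change was 0.27 ± 0.349 (SE, limma adjusted p = 0.635), and it was -0.15 in keratin-free livers. The authors' deposited table gave a log2 change of 0.11 with an adjusted p of 0.857. At 9.35 ± 5.05 RPKM in WT livers, Mcm10 stood above Mcm2, Mcm3, Mcm4, Mcm5 and Mcm6 there.

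At the fork, Prim1, the catalytic subunit of primase, rose most among the polymerase alpha and primase genes. It was at 4.60, 2.19, 3.54, 3.89 and 4.31 RPKM in WT livers and at 25.3, 14.1, 20.9, 36.3 and 19.0 in MYC livers. No WT liver came near the MYC livers, and the log2 change was 2.32 ± 0.254 (limma adjusted p = 4.60e-06). Prim2, its partner, rose by 1.17, Pola1 by 1.09 and Pola2 by 0.68 on the log2 scale. Pola2 had 3.50 ± 0.631 RPKM in WT and 6.24 ± 1.21 in MYC livers without overlap, and its limma adjusted p of 0.0330 became 0.0611 with the keratin set as a term. Without MYC replicate 1, 4 or 5, or without WT replicate 2, 4 or 5, the Pola2 change was 0.61 to 0.67 and its limma adjusted p 0.0573 to 0.0887.

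The catalytic subunit of polymerase epsilon, Pole, was at 0.769, 0.464, 0.862, 0.739 and 0.597 RPKM in WT livers and at 10.7, 5.99, 5.06, 6.91 and 9.34 in MYC livers, a log2 change of 2.31. It is among the 6 genes that passed the filter through the other groups. The lowest MYC liver was several times the highest WT liver. Its second subunit Pole2 rose by 1.27, and the polymerase delta subunits Pold1 and Pold2 by 1.42 and 1.29. Pold3, another delta subunit, had 11.2, 8.44, 13.1, 8.01 and 10.1 RPKM in WT livers and 15.6, 10.7, 13.3, 21.3 and 18.5 in MYC livers. One MYC liver lay within the WT range, and the log2 change of 0.58 ± 0.226 did not pass the test (limma adjusted p = 0.0709). Without MYC replicate 2 the Pold3 change was 0.70 and passed it (limma adjusted p = 0.0340), as did the same 0.58 without MYC+Ex3 replicate 3 in the joint fit (0.0307).

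Pcna, the sliding clamp, was the most abundant of the 46 transcripts. WT livers lay close together at 55.7, 51.7, 54.7, 54.7 and 55.6 RPKM, and MYC livers were at 107, 81.3, 119, 178 and 92.1. The groups did not overlap, and Pcna moved from rank 1609 to 1784 among all genes by RPKM in WT livers to rank 183 to 1008 in MYC livers. Its log2 change was 1.02 ± 0.157 (SE, limma adjusted p = 9.26e-05). Copies of Pcna annotated as pseudogenes, Pcna-ps1 and Pcna-ps2, could share its reads. Among the clamp loader genes, Rfc4 rose by 1.84 and Rfc5 by 1.30, while Rfc2, Rfc3 and Rfc1, at 0.90, 0.89 and 0.56, rose less. Rfc1 passed at a limma adjusted p of 0.0175 but had 0.224 in keratin-free livers and 0.0552 without WT replicate 2, where the change was 0.46.

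RPA covers single-stranded DNA at the fork. Rpa2 rose from 5.76 ± 1.02 to 21.2 ± 5.80 RPKM (log2 change 1.69 ± 0.231), Rpa1 from 21.4 ± 2.04 to 42.5 ± 6.26 (0.95 ± 0.132) and Rpa3 from 12.9 ± 3.0 to 24.4 ± 10.6 (0.81 ± 0.210). Rpa3 was the only 1 of the 3 in which the groups overlapped, and in keratin-free livers its change was 0.38 and did not pass (limma adjusted p = 0.245). The genes that finish Okazaki fragments also rose: Fen1, the flap endonuclease, from 6.71 ± 2.42 to 34.2 ± 10.0 RPKM (2.21), and Lig1, the ligase, from 1.14 ± 0.162 to 6.40 ± 2.04 (1.75). A noncoding gene on the other strand, Gm10143, covers 78.8% of the exon bases of Fen1.

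Of the fork protection and checkpoint genes, Wdhd1, which links the helicase to polymerase alpha, rose by 1.65, Tipin by 1.35 and Clspn (claspin) by 1.18. Timeless, the partner of Tipin, rose less, from 3.48 ± 0.843 to 6.45 ± 1.26 RPKM without overlap (log2 change 0.74, limma adjusted p = 0.0310), and its p became 0.0584 with the keratin set as a term. Without MYC replicate 1 or 5, or WT replicate 2 or 4, the Timeless change was 0.64 to 0.70 and its limma adjusted p 0.0631 to 0.0849. The CAF-1 subunits Chaf1b and Chaf1a, which place histones on new DNA, rose by 1.68 and 1.36. For Chaf1a, 52.5% of the exon bases overlap Ubxn6 on the other strand.

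**Figure D3:**
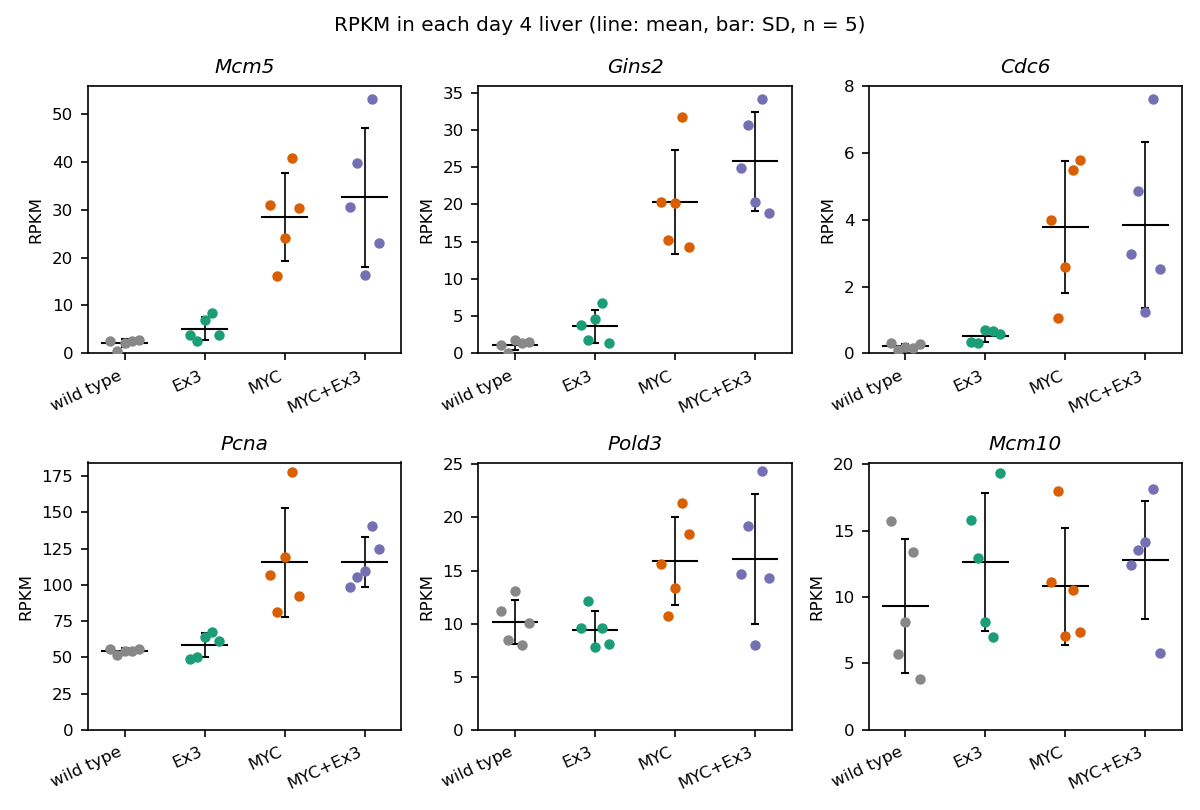
RPKM of 6 replication genes in each day 4 liver (points), with the mean (line) and SD (bar) of 5 livers a group. Mcm5, Gins2, Cdc6 and Pcna show no overlap between the WT and MYC groups, whereas Pold3 and Mcm10 do overlap.

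MYC livers also differed among themselves. Replicate 4 was the highest MYC liver for 32 of the 46 genes and replicate 2 the lowest for 33. The mean of the 46 log2(RPKM + 1) values ran from 3.29 to 4.26 over MYC livers and from 1.95 to 2.47 over WT livers. Reads of the 46 genes made up 0.0551% to 0.0871% of all reads in genes in WT livers and 0.163% to 0.295% in MYC livers. Replicate 4 was also the keratin-bearing MYC liver. Within the keratin-free set, which held 4 MYC and 2 WT livers, 32 of the 46 genes were called higher with a median change of 1.11, where 9.36% of all genes were called. With the keratin set as a term 42 were called, and 26.2% of all genes. With only 1 keratin-bearing MYC liver, no value within that set could be had.

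Markers of other cells were tested beside these changes. None of 6 hepatocyte markers, 5 lymphocyte markers or 3 erythroid markers tested passed in MYC against WT livers, 1 of 6 macrophage markers and 1 of 5 stellate markers were higher and 1 of 5 endothelial markers lower. The hepatocyte markers summed to 1081 to 1283 RPKM in WT livers, where the highest value of any gene was 272 to 340. Whether markers that high could show a change in hepatocyte content was not tested. In MYC+Ex3 against WT livers 1 hepatocyte marker and 2 stellate markers were lower and 1 stellate marker higher. The summed macrophage markers were at 183 to 349 RPKM in WT livers and 266 to 396 in MYC livers, and none of the 6 was at 0 throughout a group. The part of these cells in the result was not tested.

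**Figure D4:**
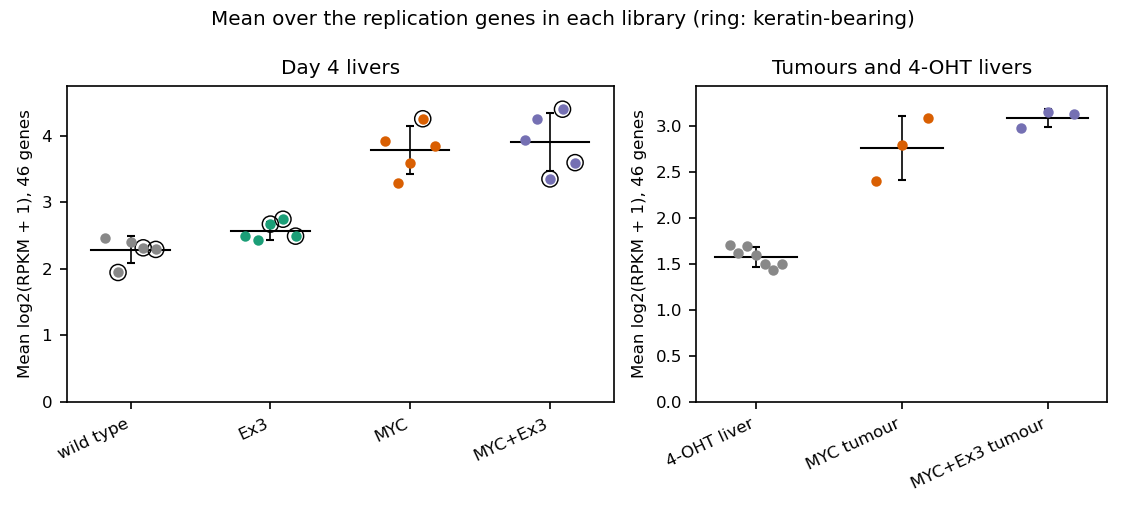
Mean log2(RPKM + 1) over the 46 replication genes in each library (points), with the mean (line) and SD (bar) of each group, on separate scales for day 4 livers (n = 5 a group) and for 4-OHT livers (n = 7) and tumours (n = 3 a group). Rings mark keratin-bearing libraries, and all MYC and MYC+Ex3 libraries lie above the controls of their panel.

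The second comparison asked what activated β-catenin did without MYC. None of the 46 genes passed the limma test in Ex3 against WT livers, where 0.132% of all genes tested (18 of 13688) did. At an unadjusted p under 0.05 there were 7 of the 46, against 5.44% of all genes, and the smallest adjusted p among them was 0.456. Of the 46 estimates 40 were above 0, with a median of 0.27 on the log2 scale against 0.01 over all genes. All come from the same livers, so this count of signs is not a test. The largest was that of Gins2, at 3.76, 1.75, 4.56, 6.77 and 1.37 RPKM in Ex3 livers, with a log2 change of 1.06 ± 0.318. These values overlapped those of WT livers. Mcm5 followed at 0.94 ± 0.324 and Mcm6 at 0.84 ± 0.261. The lowest were Orc2 at -0.19, Pole2 at -0.14 and Cdc7 at -0.12.

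For 4 genes, Cdc6, Mcm6, Pole and Chaf1a, the lowest Ex3 liver lay above the highest WT liver, a pattern seen in 1.03% of all genes. Cdc6 and Pole were below 1 RPKM in every WT liver and were tested only because other groups reached that level. Their part of this count is no evidence, which leaves Mcm6 and Chaf1a. Mcm6 was at 4.81, 3.97, 9.18, 11.1 and 6.45 RPKM in Ex3 livers and at 3.4, 2.98, 3.62, 3.25 and 3.19 in WT livers. Pole was at 1.11, 1.35, 1.84, 2.21 and 1.73 RPKM in Ex3 livers. The authors' deposited table called 2 of 41 replication genes with a p, Mcm6 at a log2 change of 0.68 (adjusted p 0.0122) and Pole at 0.81 (adjusted p 0.000498), against 0.765% of all genes in that column. Both tests therefore gave a positive change for these genes and differed in whether it passed.

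Ex3 replicates 3 and 4 had the highest means of the 46 log2 values, 2.67 and 2.75, while the other Ex3 livers were at 2.43 to 2.5 and WT livers at 1.95 to 2.47. They were the 2 highest Ex3 livers for 22 of the 46 genes (47.8%), against 13.1% of all genes tested. As these livers were picked by the same 46 genes, that count was favoured in advance and is not a test. Mki67, a gene of dividing cells, was at 24.3 and 28.0 RPKM in these livers. The other Ex3 livers had 3.05 to 4.25 RPKM of Mki67. Both livers belonged to the keratin-bearing set, and they were the only females of the group by the data. The other keratin-bearing Ex3 liver, replicate 5, had 4.25 RPKM of Mki67. Within that set the median change of the 46 genes was 0.44, and within the keratin-free set it was 0.05. None of the 46 was called in either, where 0.0153% and 0.015% of all genes were. With sex as a covariate 0 of the 46 genes were called as well, where 0.226% of all genes were. The part of the keratin-bearing material in this difference was not tested.

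Livers with both alleles gave the same counts against WT livers as MYC alone: 44 of 46 genes rose, none fell, and Mcm10 and Pold3 did not pass, with 17.9% of all genes called higher and 6.18% lower. The WT livers are shared with the previous comparisons. The median change was 1.52, against 0.05 over all genes, and ran from 0.49 for Mcm10 to 3.69 for Gins2. Gins2 was at 24.9, 30.7, 20.3, 34.2 and 18.8 RPKM in MYC+Ex3 livers, all above every WT liver. Mcm5 had a log2 change of 3.37, Mcm6 of 2.97, Pole of 2.66 and Prim1 of 2.59. The smallest called changes were those of Gins4 at 0.81, Pola2 at 0.72, Timeless at 0.69 and Rfc1 at 0.66. Timeless (limma adjusted p = 0.0415) and Pola2 (0.0235) were above the threshold when only the compared groups were fitted, at 0.109 and 0.0616. Timeless also missed it without MYC+Ex3 replicate 1, 2 or 4 or WT replicate 1, 2 or 4 (limma adjusted p 0.0552 to 0.134), and Pola2 without MYC+Ex3 replicate 1, 2 or 4 or WT replicate 4 or 5 (0.0534 to 0.0834). Pold3 passed without MYC+Ex3 replicate 3, at a change of 0.76 (limma adjusted p = 0.00817). In keratin-free livers 42 of the genes were called, with 22.5% of all genes, and in keratin-bearing livers 40, with 18.6%. Rfc1, Pola2 and Timeless did not pass in keratin-bearing livers (limma adjusted p = 0.0746, 0.191 and 0.301). Without the 6 genes below 1 RPKM in every WT liver, 38 of 40 rose.

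Against Ex3 livers, the addition of MYC raised 43 of the 46 genes, where 16.4% of all genes were called higher and 4.7% lower. Mcm10, Rfc3 and Timeless did not pass. The 43 include genes with few reads in Ex3 livers, among them Cdc7 with 3 to 9, Orc1 with 6 to 13 and Cdc6 with 9 to 16 a library. The median was 1.33 on the log2 scale, with Gins2 at 2.63, Mcm5 at 2.43 and Mcm6 at 2.13. Rfc3 had 0.63 ± 0.227 (limma adjusted p = 0.0538) and Timeless 0.57 ± 0.239 (0.0993). Without MYC+Ex3 replicate 3 both passed, Rfc3 at 0.76 (limma adjusted p = 0.0210) and Timeless at 0.80 (0.00830). Rfc3 also passed, at the same 0.63, without MYC replicate 2 or 4 or WT replicate 1 or 2 in the joint fit (0.0256 to 0.0493). With a filter at RPKM 5, with only the compared groups and with the keratin set as a term its limma adjusted p was 0.0498, 0.0217 and 0.0493. Timeless passed in keratin-free livers (limma adjusted p = 0.0430). Under the remaining processing settings neither passed. Mcm10 was at 15.8, 12.9, 8.11, 7.01 and 19.4 RPKM in Ex3 livers and at 12.4, 13.6, 14.1, 18.1 and 5.82 in MYC+Ex3 livers, which overlapped throughout. Its estimate of 0.03 turned to -0.03 after rescaling by the median ratio. In keratin-bearing livers 30 of the genes were called, with 12.7% of all genes, and in keratin-free livers 41, with 17.3%. Rfc1 and Gins4, at 0.60 and 0.49 in all livers, did not pass in keratin-bearing livers (limma adjusted p = 0.133 and 0.123).

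The direct test asked what Ex3 added to MYC. None of the 46 genes passed in MYC+Ex3 against MYC livers (smallest limma adjusted p 0.9999), where 0.19% of all genes did. At an unadjusted p under 0.05 there was 1 of the 46, Rpa1, against 3.37% of all genes. The median was 0.14 against -0.01 over all genes. Pole was highest at 0.35 ± 0.292, with 13.9, 17.1, 3.54, 14.6 and 6.15 RPKM in MYC+Ex3 livers, a spread that took in the whole MYC range. Gins2 was at 0.35, Gins1 at 0.32, Dbf4 at 0.31 and Chaf1b at 0.29, and the lowest were Cdc7 at -0.26 and Orc2 at -0.21. Within MYC+Ex3 livers, replicate 4 was the highest for 32 of the genes and replicate 3 the lowest for 34, and the mean of the 46 log2 values ran from 3.35 to 4.40 over these livers. Mcm5, for example, was at 30.5, 39.8, 16.3, 53.2 and 23.0 RPKM in MYC+Ex3 livers, from the low end of the MYC range to above it. In keratin-free livers the median was 0.43, again with none of the 46 called, where 0.045% of all genes were.

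The interaction of the alleles, the change by MYC with Ex3 minus the change by MYC without it, also gave 0 of 46 genes, where 0% of all genes were called. At an unadjusted p under 0.05 there were 0 of 46, against 0.964% of all genes. The median of the interaction was -0.13. Mcm5 had -0.80 ± 0.458, Mcm6 -0.72 ± 0.369 and Gins2 -0.71 ± 0.449, each with a limma adjusted p of 0.9999, and the highest were Pola1 and Pole2, both at 0.14. In keratin-free livers the median was 0.41 and Mcm5 stood at 0.19, the other sign.

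In tumours the whole list moved. All 46 genes rose in MYC tumours against 4-OHT livers, in a comparison where 49.8% of the 11854 genes tested were called, 36.2% higher and 13.7% lower. The median change was 1.19, against 0.19 over all genes, and the range was 0.54 to 1.98. Rescaling by the median ratio moved the median of all genes to 0.01 and that of the 46 genes to 1.02. It left 45 called, where 50.5% of all genes were. In 41 of the 46 genes no 4-OHT liver reached the lowest tumour, as in 26.3% of all genes. The exceptions were Cdc7, Mcm10, Gins3, Pold3 and Timeless. The authors' deposited table called 45 of the 46, the exception being Mcm10, and 44.5% of all genes. Orc1, Cdc6, Cdc7, Cdc45, Gins3, Pole2, Clspn and Chaf1b were below 1 RPKM in every 4-OHT liver and passed the filter through the tumours. The other 38 all rose, 35 of them without overlap.

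**Figure D5:**
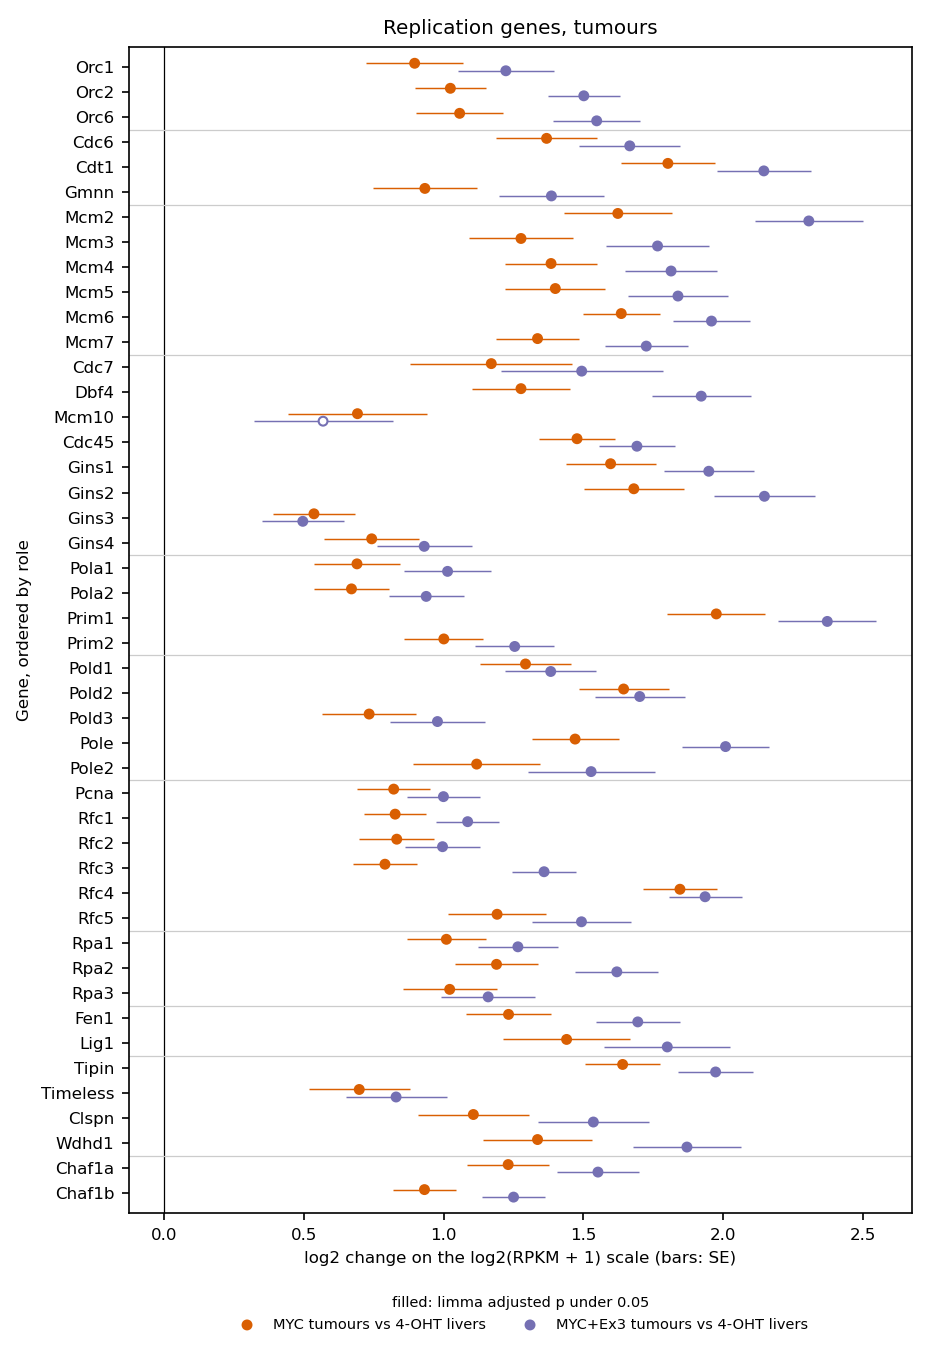
Change of each replication gene in MYC and MYC+Ex3 tumours (n = 3 each) against 4-OHT livers (n = 7), as log2 change on the log2(RPKM + 1) scale with SE. Filled points passed the limma test, which was all 46 genes in MYC tumours and all but Mcm10 in MYC+Ex3 tumours.

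Prim1 again stood out. Its RPKM was 1.10 at the lowest, 1.79 at the median and 2.56 at the highest of the 7 4-OHT livers, and 7.47, 9.41 and 11.7 in MYC tumours. The tumours were well clear of the livers, with a log2 change of 1.98 ± 0.176 (SE, limma adjusted p = 2.07e-06). Rfc4 rose by 1.85, from 1.63 ± 0.304 (SD, n = 7) to 8.50 ± 1.69 RPKM (n = 3). Cdt1 rose by 1.80, from 1.16 ± 0.246 to 6.61 ± 1.68 RPKM. Gins2 followed at 1.68 and Pold2 at 1.64. In the authors' deposited table Cdc6 came first at 2.44, with Cdt1 at 2.24 and Prim1 at 2.23.

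The MCM2-7 genes rose within a narrow band in MYC tumours, from 1.28 for Mcm3 to 1.64 for Mcm6. The origin genes rose by 0.90 for Orc1, 1.02 for Orc2 and 1.06 for Orc6. Orc1 is low, at 0.265 RPKM in 4-OHT livers and 1.45 in MYC tumours, and its value is held down by the pseudocount. In the authors' deposited table the order was the reverse, with 2.02 for Orc1, 1.23 for Orc2 and 1.19 for Orc6. Pcna was at 26.6, 24.9 and 29.1 RPKM, above the 11.8 to 17.3 of the 4-OHT livers, and moved by 0.82. On the log2(RPKM + 1) scale the smallest changes were those of Gins3 at 0.54, Pola2 at 0.67, Pola1 at 0.69, Mcm10 at 0.69 and Timeless at 0.70. The authors' deposited table gave Gins3, which is also low, 0.91, with Pola1 at 0.89 and Pola2 at 0.83. Its smallest were Gins4 at 0.62, Mcm10 at 0.64, Pcna at 0.65, Rfc2 at 0.71 and Pold3 at 0.73.

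Mcm10 was at 7.96, 3.48 and 4.61 RPKM in MYC tumours, and at 1.55, 3.07 and 4.56 as the lowest, median and highest of the 4-OHT livers. The groups overlapped, and the limma adjusted p of 0.0321 was 0.188 without MYC tumour replicate 1, where the change was 0.41. It also missed the threshold without MYC tumour replicate 3 or 4-OHT replicate 2, 4 or 6 (0.0540 to 0.0594) and after rescaling by the median ratio (0.0913). Gins3, one of the genes that passed the filter through the tumours, had 0.729, 1.76 and 1.94 RPKM in MYC tumours, of which the first lay within the 0.569 to 0.927 of the 4-OHT livers. Without MYC tumour replicate 3 its change was 0.39 and its limma adjusted p 0.0594. The 4-OHT livers carry sample names of 2 series, S14 and S15, and against the S14 livers alone Gins3 had a limma adjusted p of 0.0525. Against the S15 livers alone Mcm10 had 0.154 and Timeless 0.0755.

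MYC tumours differed among themselves in level. Replicate 3 was the highest for 41 of the 46 genes and replicate 1 the lowest for 38. Wdhd1, for example, was at 1.76, 4.98 and 5.22 RPKM and Cdc7 at 0.543, 2.66 and 5.15. For Cdc7 the first tumour lay within the range of the 4-OHT livers, 0.273 to 0.718. The median RPKM over all genes was also lowest in replicate 1, at 0.791, against 1.20 and 1.16 in replicates 2 and 3. The part of this difference in the levels of the 46 genes was not tested.

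In MYC+Ex3 tumours 45 of the 46 genes rose against the same 4-OHT livers, where 60.6% of all genes were called (42.3% higher and 18.4% lower), and Mcm10 did not pass (0.57 ± 0.249, limma adjusted p = 0.0614). Mcm10 had 4.17, 4.96 and 4.65 RPKM there, and it did pass without MYC tumour replicate 1 or 2 or 4-OHT replicate 3 or 5 (0.0281 to 0.0496). The median change was 1.54, against 0.23 over all genes (1.39 and 0.04 after rescaling), with a range of 0.50 to 2.37. All 45 were without overlap, as in 38.2% of all genes. Without the 8 genes below 1 RPKM in every 4-OHT liver, 37 of 38 rose and 37 were without overlap. Prim1 had 10.4, 13.6 and 14.3 RPKM, a log2 change of 2.37. Mcm2 had 15.2, 17.1 and 16.8 RPKM, against a range of 1.94 to 2.90 in the 4-OHT livers, and a change of 2.31. Gins2 and Cdt1 both rose by 2.15 and Pole by 2.01. At the low end were Gins4 at 0.93, Timeless at 0.83 and Gins3 at 0.50. Gins3 was at 0.93 with a pseudocount of 0.1, and against the S14 livers alone it had a limma adjusted p of 0.0566. The 3 tumours lay closer together than the MYC tumours, with means of the 46 log2 values of 2.98 to 3.16 against 2.40 to 3.09.

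Between the tumour genotypes, 44 of the 46 estimates were higher in MYC+Ex3 tumours, a count that is not a test, as all come from the same tumours. In this comparison 1 of the 46 genes passed, where 4.13% of all genes were called, 2.02% higher and 2.1% lower. That gene was Rfc3, a clamp loader subunit, at 3.46, 2.44 and 2.84 RPKM in MYC tumours and 4.50, 4.90 and 4.95 in MYC+Ex3 tumours. The groups did not overlap, and the change was 0.57 ± 0.134 (SE, limma adjusted p = 0.0288). The authors' deposited table, made from the same tumours, also called Rfc3 alone of the 46, at 0.65 (adjusted p 0.0347), where 4.49% of all genes were called. The median of the 46 genes was 0.33 against 0.03 over all genes, and 14 of the 46 had an unadjusted p under 0.05, against 17.6% of all genes.

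The call of Rfc3 rested on few tumours. It was lost without MYC tumour replicate 2 or without any 1 of the MYC+Ex3 tumours, when 0 genes passed. Without MYC tumour replicate 3, the tumour with the highest levels, 8 genes passed, where 6.48% of all genes did, among them Mcm2 (0.95), Dbf4 (0.87) and Pole (0.71). With all tumours, Mcm2 had 0.68 ± 0.228, Dbf4 0.65 ± 0.209 and Pole 0.54 ± 0.185, with limma adjusted p of 0.120, 0.108 and 0.131. In 7 genes, Orc2, Mcm2, Mcm7, Dbf4, Pole, Rfc3 and Fen1, the MYC+Ex3 tumours all lay above the MYC tumours, as in 8.59% of all genes. The lowest estimates were Mcm10 at -0.12 and Gins3 at -0.04.

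Markers of other cells differed between tumours and 4-OHT livers beside these changes. Of 6 macrophage markers 5 were lower in MYC and 4 in MYC+Ex3 tumours, and of 5 endothelial markers 4 and 3. The summed macrophage markers were at 89.6 to 117 RPKM in 4-OHT livers, 25.3 to 93.1 in MYC tumours and 42.0 to 53.2 in MYC+Ex3 tumours. The summed endothelial markers were at 32.5 to 55.9, 14.1 to 29.7 and 20.1 to 23.9 RPKM. All 5 erythroid markers were higher in MYC+Ex3 tumours, with sums of 51.8 to 64.1 RPKM against 13.5 to 30.9 in 4-OHT livers and 10.9 to 53.0 in MYC tumours. Of 6 hepatocyte markers none differed in MYC tumours and 3 were lower in MYC+Ex3 tumours. They summed to 184 to 247 RPKM in 4-OHT livers, where the highest value of any gene was 43.3 to 59.5. Whether such high values are compressed was not tested. No marker of these lists was at 0 throughout any of these groups, and the part of these cells in the results was not tested.

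Further genes of DNA replication that are not among the 46 were counted by the same rule. Of 36 such genes, 24 rose and none fell in MYC against WT livers, with a median of 0.85 and 16.9% of all genes called higher. In MYC+Ex3 against WT livers 25 rose, with 17.9% of all genes called higher. The largest changes in MYC livers were those of Top2a, the topoisomerase of replicated chromosomes, at 3.92, Rrm2, a subunit of the enzyme that makes deoxyribonucleotides, at 2.76, and the histone chaperone Asf1b at 2.40. Among the 12 that did not pass were Orc3 at -0.05 and Orc4 at 0.04, the other subunits of the origin complex, while Orc5 rose by 0.74. Mcm8, a helicase of repair, rose by 1.53, and its partner Mcm9, at -0.06, did not pass. None of the 36 passed in Ex3 against WT livers or in MYC+Ex3 against MYC livers. In the tumours 30 of 35 tested rose with MYC and 31 of 35 with MYC+Ex3, where 36.2% and 42.3% of all genes were called higher, and none of the 35 differed between the tumour genotypes.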

How the data were processed

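Total RNA of 33 mouse livers and liver tumours was measured. Per the submitters' processing notes, the tools used included TopHat2 2.0.8, SAMtools, featureCounts 1.4.5-p1 and DESeq2, and the build was mm9. Libraries were strand-specific per the labels' protocols, and the strand setting of the counting is not given in the sources used here. The authors deposited 1 table of RPKM values for 21671 genes, with 1 column per library and 0 columns of samples outside the series. The authors' deposited table also gives a log2 fold change and an adjusted p-value for each of their comparisons, printed only where named as theirs. Within each gene the RPKM values were whole multiples of 1 read (tolerance 0.01) for 100% of the 20263 and 18785 genes above 0 in the short-term and tumour experiments, which gave the depths. Counts were not tested, as the deposited unit is RPKM.

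Groups follow the titles, genotype and treatment labels, and replicate numbers only name libraries. The main test was the two-sided moderated test of limma 3.58.1 in R 4.3.3 (trended empirical Bayes) on log2(RPKM + 1), fitted to all genes with RPKM of at least 1 in 3 or more libraries of the experiment, with Benjamini-Hochberg adjustment and a threshold of 0.05. Each experiment had its own fit, of 20 short-term livers or of 13 tumours and 4-OHT livers. The log2(RPKM + 1) scale understates changes of low genes. The script was tested on simulated data. The 46 genes, the lists of other genes and markers, and the tests were chosen with earlier results of these data known. The naming rule took, in MYC against WT livers, the largest and smallest change in each role, and in other comparisons the 5 largest and 5 smallest; other members are named as examples of their role, after their values were seen. Promoters are from RefSeq, build GRCm38.p6, and gene overlaps from GENCODE M21. Alternatives were a pseudocount of 0.1, no filter, a filter at RPKM 5, median-ratio rescaling, fits of the compared groups only, a sex covariate, the keratin set as a term or split, the S14 or S15 named 4-OHT livers alone, and leaving out each library.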

Additional observations from a re-analysis of the deposited data

Results flagged for a closer look

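In 100 sets of named gene and group with 4 to 10 libraries, 3 libraries stood far enough from the rest of their group to be set apart by Dixon's test at its 95% level, where chance alone sets apart about 1 in 20. Mcm5 was at 0.577 RPKM in WT replicate 2 of the short-term livers, and at 2.21 to 2.87 in the other 4. Mcm4 was at 1.78 RPKM in replicate 5 of the 4-OHT livers, and at 2.35 to 2.65 in the other 6. Wdhd1 was at 1.06 RPKM in replicate 4 of the 4-OHT livers, and at 0.788 to 0.844 in the other 6. WT replicate 2 was the lowest WT liver for 27 of the 46 genes.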

How the results depend on the processing

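Of 72 counts of called genes under the other settings, 69 were within 1.5 times the main count and 3 were not. All 3 concern MYC+Ex3 against MYC tumours, where 1 gene passed. With a pseudocount of 0.1, 0 of the 46 genes passed, where 4.33% of all genes did. With a filter at RPKM 5 it was 0 and 3.53%, and when only those tumours were fitted 0 and 0.633%. The cause was not tested. With 1 library left out at a time, the counts in MYC against WT livers were 41 to 45. They were 42 to 45 in MYC+Ex3 against WT and 41 to 45 in MYC+Ex3 against Ex3. With all livers, 22.3%, 24.1% and 21.1% of all genes were called there. The counts were 44 to 46 in MYC tumours, 45 to 46 in MYC+Ex3 tumours and 0 to 8 between the tumours. Where a tumour was left out, 37.8% to 52.0%, 50.9% to 64.9% and 1.69% to 6.5% of all genes were called. The counts stayed at 0 in Ex3 against WT, MYC+Ex3 against MYC and the interaction. With all livers 0.132%, 0.19% and 0% of all genes were called in these 3.

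Of 784 values of named genes under the other settings, 732 kept their sign and their side of the threshold, 27 lost a call, 7 gained 1 and 18 changed sign. The sign changes were, in keratin-free livers, Mcm10 at -0.15 in MYC against WT, Wdhd1 at 0.30, Timeless at 0.28, Orc1 at 0.085, Orc2 at 0.12 and Cdc7 at 0.067 in MYC+Ex3 against MYC, Mcm10 at -0.13 in MYC+Ex3 against Ex3, and Fen1 at 0.45, Mcm2 at 0.22, Gins2 at 0.047, Mcm6 at 0.21 and Mcm5 at 0.19 in the interaction. With the keratin set as a term Timeless was at 0.084 in MYC+Ex3 against MYC and Tipin at -0.026 in the interaction. In keratin-bearing livers Pola1 was at 0.13 in Ex3 against WT. Mcm10 in MYC+Ex3 against Ex3 was at -0.027 with rescaling and -0.17 with a sex covariate, and at 0.057 between the tumours with a sex covariate. None of these 18 passed the test in either setting, and their cause was not tested.

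With 1 library left out, 42 of 1790 values changed sign. They lay within -0.14 to 0.016 for Pola1 in Ex3 against WT; -0.21 to 0.12 for Wdhd1, -0.21 to 0.18 for Timeless, -0.23 to 0.11 for Orc1 and -0.35 to 0.021 for Orc2 in MYC+Ex3 against MYC; and -0.14 to 0.27 for Mcm10 in MYC+Ex3 against Ex3. In the interaction they lay within -0.021 to 0.30 for Pola1, -0.081 to 0.34 for Pole2, -0.077 to 0.29 for Pold1 and -0.057 to 0.29 for Tipin. Between the tumours they lay within -0.10 to 0.34 for Pold1, -0.049 to 0.21 for Rfc4, -0.17 to 0.21 for Pold2, -0.28 to 0.10 for Gins3 and -0.34 to 0.16 for Mcm10. No paired analysis was possible because the labels give the groups no shared replicate numbers. At the lowest levels, such as Cdc6 and Gins2 in WT livers with 0 to 11 reads a library, depth limits the size of the change.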
